A study of Homo sapiens with 12 samples.

Results

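The effect of PSPC1 knockdown was compared, gene by gene, between the human leukemia lines MOLM13 and OCIAML5, both established from acute myeloid leukemia. All 8 libraries of the PSPC1 experiment were used, of the 12 in the series, and the quantity tested was the log2 change on knockdown in OCIAML5 minus the log2 change on knockdown in MOLM13, called the difference below. A positive difference therefore means a larger rise or a smaller fall in OCIAML5. Of 60648 genes listed, 16457 had enough counts to be tested, and 8911 of these were well counted, with a mean of at least 5 CPM (reads of the gene scaled to a library of fixed size) in each of the 4 groups. LINC01963, EIF3J-DT and KIAA1328 lay just inside that limit, with a lowest group mean of 5.002, 5.007 and 5.013 CPM, and ZNF670, GPR135 and MIEF2 just outside it at 4.999, 4.993 and 4.993 CPM. Genes with opposite changes were those that passed an adjusted p of 0.05 in both lines with opposite signs and for the difference as well.

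PSPC1 is an RNA-binding protein of the same family as NONO and SFPQ, and these proteins bind one another. Together they are core proteins of paraspeckles, nuclear bodies built on the long noncoding RNA NEAT1, and they also take part in transcription and RNA processing. MOLM13 is known to carry a KMT2A fusion and an activating duplication in FLT3, while OCIAML5 is known to depend on GM-CSF for growth.

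Each line had 2 libraries with a control hairpin and 2 with a hairpin against PSPC1, both delivered by lentivirus, after which the cells were selected with puromycin or sorted for GFP. MOLM13 grew in RPMI with serum, and OCIAML5 in alpha-MEM with more serum and with GM-CSF, so the line and its medium cannot be told apart. RNA was taken with TRIzol and made into stranded mRNA libraries. The remaining 4 libraries are controls and PU.1 knockdowns of OCIAML5 from a second experiment, and they are used below only where they are named. Whether paired libraries stem from different cultures or hairpins is not stated in the labels, and p-values here reflect only how far these libraries spread, which may be technical.

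The 8 libraries held 15372383 to 22757998 counts, and the biological coefficient of variation was 4.73%. PSPC1 (chromosome 13, 19674752 to 19783019; positions are those of GENCODE 29 on GRCh38) stood at 130.2 and 135 CPM (control) and 27.1 and 27.7 CPM (knockdown) in MOLM13, against 99.1 and 98.8 CPM (control) and 18.9 and 19.2 CPM (knockdown) in OCIAML5. The knockdown left no overlap in either line, and its depth did not pass the test of a difference (-2.27 in MOLM13, -2.38 in OCIAML5, difference -0.10 with a 95% interval of -0.32 to 0.11, adjusted p = 0.52). SPI1, which encodes PU.1, a master regulator of myeloid cells, was counted at 179.6 to 352 CPM in all 8 libraries. Of 14 erythroid markers only 1 had enough counts to be tested, at 2.09 to 10.2 CPM. Of 12 megakaryocyte markers 4 were tested, and these summed to 4.68 to 16.7 CPM. The OCIAML5 controls of this experiment stand apart from those of the PU.1 experiment for many genes. HSPA5, for example, stood at 431 and 436 CPM in the first pair and 712 and 743 CPM in the second, in libraries scaled together, and MPEG1 at 868 and 857 against 226 and 237 CPM. Many results are therefore also given with the second pair in place of the first. With that exchange 3246 of the 16457 genes tested had a higher difference and 2297 a lower one. With the first pair these were 2966 and 2055. A rise, fall, difference or adjusted p with the second pair sets PSPC1 knockdown libraries against another experiment's controls. Knockdown and experiment cannot be told apart in these values, and their p-values do not cover the gap between experiments. Where the second pair is not named, values rest on the first pair alone. As these are bulk libraries, fewer cells of a type and less RNA per cell cannot be told apart.

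Both lines changed broadly in the same sense, and the difference was still past the threshold for 5021 of the genes tested (30.5%), 2966 higher in OCIAML5 (18%) and 2055 lower (12.5%). Among well-counted genes it was 3926 of 8911 (44.1%), 2402 higher (27%) and 1524 lower (17.1%), and 441 of them differed by at least 2-fold. Across well-counted genes the OCIAML5 change had a correlation of r = 0.765 (Pearson) and 0.747 (Spearman) with the MOLM13 change, with a slope of 0.71; these are descriptions across genes, which are not independent, and the 2 effects share no library. The median difference over all genes tested was 0.06. Many called genes moved the same way in both lines, 1165 with the larger change in MOLM13 and 752 with the larger change in OCIAML5. In another 794 the change passed in MOLM13 alone, in 717 in OCIAML5 alone and in 34 in neither. That leaves 464 opposite changes, of which 256 rose in MOLM13 and fell in OCIAML5 and 208 did the reverse. The lines were about as far apart after knockdown as before it. The log2 level of OCIAML5 over MOLM13 had an SD over well-counted genes of 0.681 in the controls and 0.710 after knockdown, and 966 (10.8%) and 1044 genes (11.7%) stood at least 2-fold apart.

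**Figure D1:**
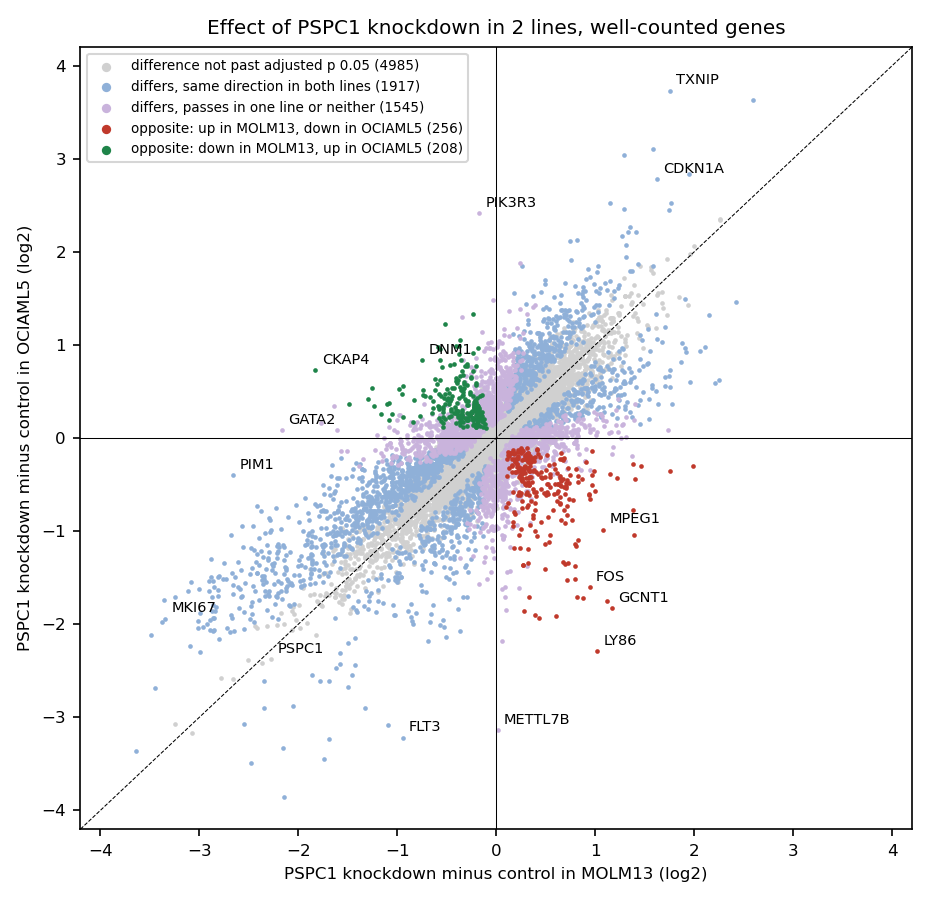
Log2 change on PSPC1 knockdown in MOLM13 (x axis) and in OCIAML5 (y axis) for 8911 well-counted genes, 1 point per gene, coloured by the outcome of the test of the difference, with the dashed line marking equal changes. Most points follow the diagonal (r = 0.765), while 256 genes lie in the lower right and 208 in the upper left with opposite changes, and MKI67 at -3.34 in MOLM13 and -1.94 in OCIAML5 lies above the diagonal.

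Genes that rose in MOLM13 and fell in OCIAML5 included LY86, MPEG1 and TEC, which are known from myeloid and other blood cells. Of the 16 monocyte and macrophage markers tested, however, 1 showed this pattern and 1 the reverse, beside 328 and 274 of the 16457 genes tested. The 8 with the largest smaller change, which is how they were picked, were GCNT1, TEC, AC104232.1, LY86, MPEG1, FOS, AL356417.3 and ARHGAP26. In each of them both knockdown libraries lay above both controls in MOLM13 and below both controls in OCIAML5. This separation comes with the way they were picked, and its share over all genes was not counted. GCNT1, a glycosyltransferase that branches O-linked glycans (chromosome 9, 76419850 to 76651203), stood at 38.4 and 43.3 CPM (control) and 89.3 and 94.1 CPM (knockdown) in MOLM13, against 47.7 and 40.9 CPM (control) and 11.8 and 13.3 CPM (knockdown) in OCIAML5. The lines thus started level and ended with no library in common, at a difference of -3.00 ± 0.13 (SE; adjusted p = 1.8e-24). LY86, which encodes the MD-1 partner of the toll-like receptor homolog CD180 (chromosome 6, 6588108 to 6654983), stood at 15.1 and 16.01 CPM (control) and 33.02 and 30.003 CPM (knockdown) in MOLM13, against 46.3 and 40.7 CPM (control) and 8.27 and 9.61 CPM (knockdown) in OCIAML5. It was higher in OCIAML5 before knockdown and lower after it, and its difference of -3.31 ± 0.17 (adjusted p = 7.3e-22) was the lowest of all well-counted genes. TEC, a non-receptor tyrosine kinase of hematopoietic signalling (chromosome 4, 48135783 to 48269864), stood at 20.9 and 20.6 CPM (control) and 44.9 and 45.1 CPM (knockdown) in MOLM13, against 167 and 167 CPM (control) and 49.5 and 49.3 CPM (knockdown) in OCIAML5. Here a gap between the lines in the controls nearly closed (difference -2.87 ± 0.10, adjusted p = 1.1e-27).

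FOS, a subunit of the AP-1 transcription factor (chromosome 14, 75278774 to 75282230), stood at 57.6 and 52.5 CPM (control) and 106 and 106 CPM (knockdown) in MOLM13, against 15.4 and 18.8 CPM (control) and 5.304 and 6.001 CPM (knockdown) in OCIAML5. For FOS the gap between the lines widened (difference -2.54 ± 0.15, adjusted p = 3.0e-19). ARHGAP26, a GTPase-activating protein, stood at 39.6 and 42.4 CPM (control) and 75.2 and 70.5 CPM (knockdown) in MOLM13, against 44.4 and 37.4 CPM (control) and 20.01 and 18.2 CPM (knockdown) in OCIAML5, a difference of -1.93. MPEG1, the macrophage pore-forming protein perforin-2, was close to the count limit in MOLM13, going from 6.12 and 4.301 to 9.03 and 13.3 CPM, and abundant in OCIAML5, going from 871 and 857 to 432 and 442 CPM. Its difference was -2.07 ± 0.15. The other members were the long noncoding RNAs AL356417.3, with changes of 0.88 in MOLM13 and -1.72 in OCIAML5, and AC104232.1, with 1.39 and -1.04. Over all 256 genes the median level was 0.27 (log2) higher in OCIAML5 than in MOLM13 in the controls and 0.61 lower after knockdown, and 113 of them differed by at least 2-fold. The direction of that shift comes with the way the class was defined. LY86 overlaps the antisense gene LY86-AS1, GCNT1 overlaps PRUNE2 and MPEG1 overlaps DTX4 on the opposite strand, and without a stated strand setting for the counting, reads of such partners cannot be told apart.

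Genes that fell in MOLM13 and rose in OCIAML5 had a median difference of 0.72, against -0.90 for the class above, and included the membrane proteins CKAP4 and TFR2. Among the 8 with the largest smaller change were DNM1, CKAP4, PDGFC, TFR2, ABCD3, CASTOR2 and C1orf216. In each of these the knockdown libraries lay below both controls in MOLM13 and above both in OCIAML5, which again comes with the way they were picked. CKAP4, a membrane protein of the rough endoplasmic reticulum (chromosome 12, 106237877 to 106304279), stood at 63.98 and 63.1 CPM (control) and 17.6 and 18.2 CPM (knockdown) in MOLM13, against 15.3 and 15.8 CPM (control) and 25.02 and 26.6 CPM (knockdown) in OCIAML5. MOLM13 started far above OCIAML5 and ended below it, and the difference was 2.55 ± 0.14 (adjusted p = 6.4e-20).

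DNM1, a dynamin of membrane fission, stood at 169.6 and 166 CPM (control) and 95.8 and 104 CPM (knockdown) in MOLM13, against 6.903 and 5.44 CPM (control) and 10.1 and 12.3 CPM (knockdown) in OCIAML5, and remained higher in MOLM13 throughout (difference 1.59). PDGFC, a platelet-derived growth factor, stood at 20.6 and 18.998 CPM (control) and 12.8 and 13.6 CPM (knockdown) in MOLM13, against 7.34 and 9.42 CPM (control) and 16.7 and 16.1 CPM (knockdown) in OCIAML5 (difference 1.56). ABCD3, a transporter of the peroxisomal membrane, stood at 41.6 and 37.5 CPM (control) and 26.3 and 27.01 CPM (knockdown) in MOLM13, against 36.2 and 36.7 CPM (control) and 56.2 and 56.2 CPM (knockdown) in OCIAML5 (difference 1.20). TFR2, a transferrin receptor of iron sensing, was thinly counted in MOLM13, at 9.22 and 8.12 CPM and then 4.75 and 6.68 CPM, against 12.5 and 13.02 and then 18.9 and 19.2 CPM in OCIAML5. CASTOR2, a relative of the arginine sensor of the mTORC1 pathway, and the open reading frame C1orf216 differed by 1.53 and 1.41. Over all 208 genes the median level was 0.39 (log2) lower in OCIAML5 than in MOLM13 in the controls and 0.37 higher after knockdown, and 55 differed by at least 2-fold. That shift, too, has its direction from the definition of the class. With the second control pair CKAP4 fell in OCIAML5 too (-0.31), by less than in MOLM13. DNM1 overlaps CIZ1 and CKAP4 overlaps TCP11L2 on the opposite strand. The size of this class depended on the tool: DESeq2 placed 137 genes in it.

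**Figure D2:**
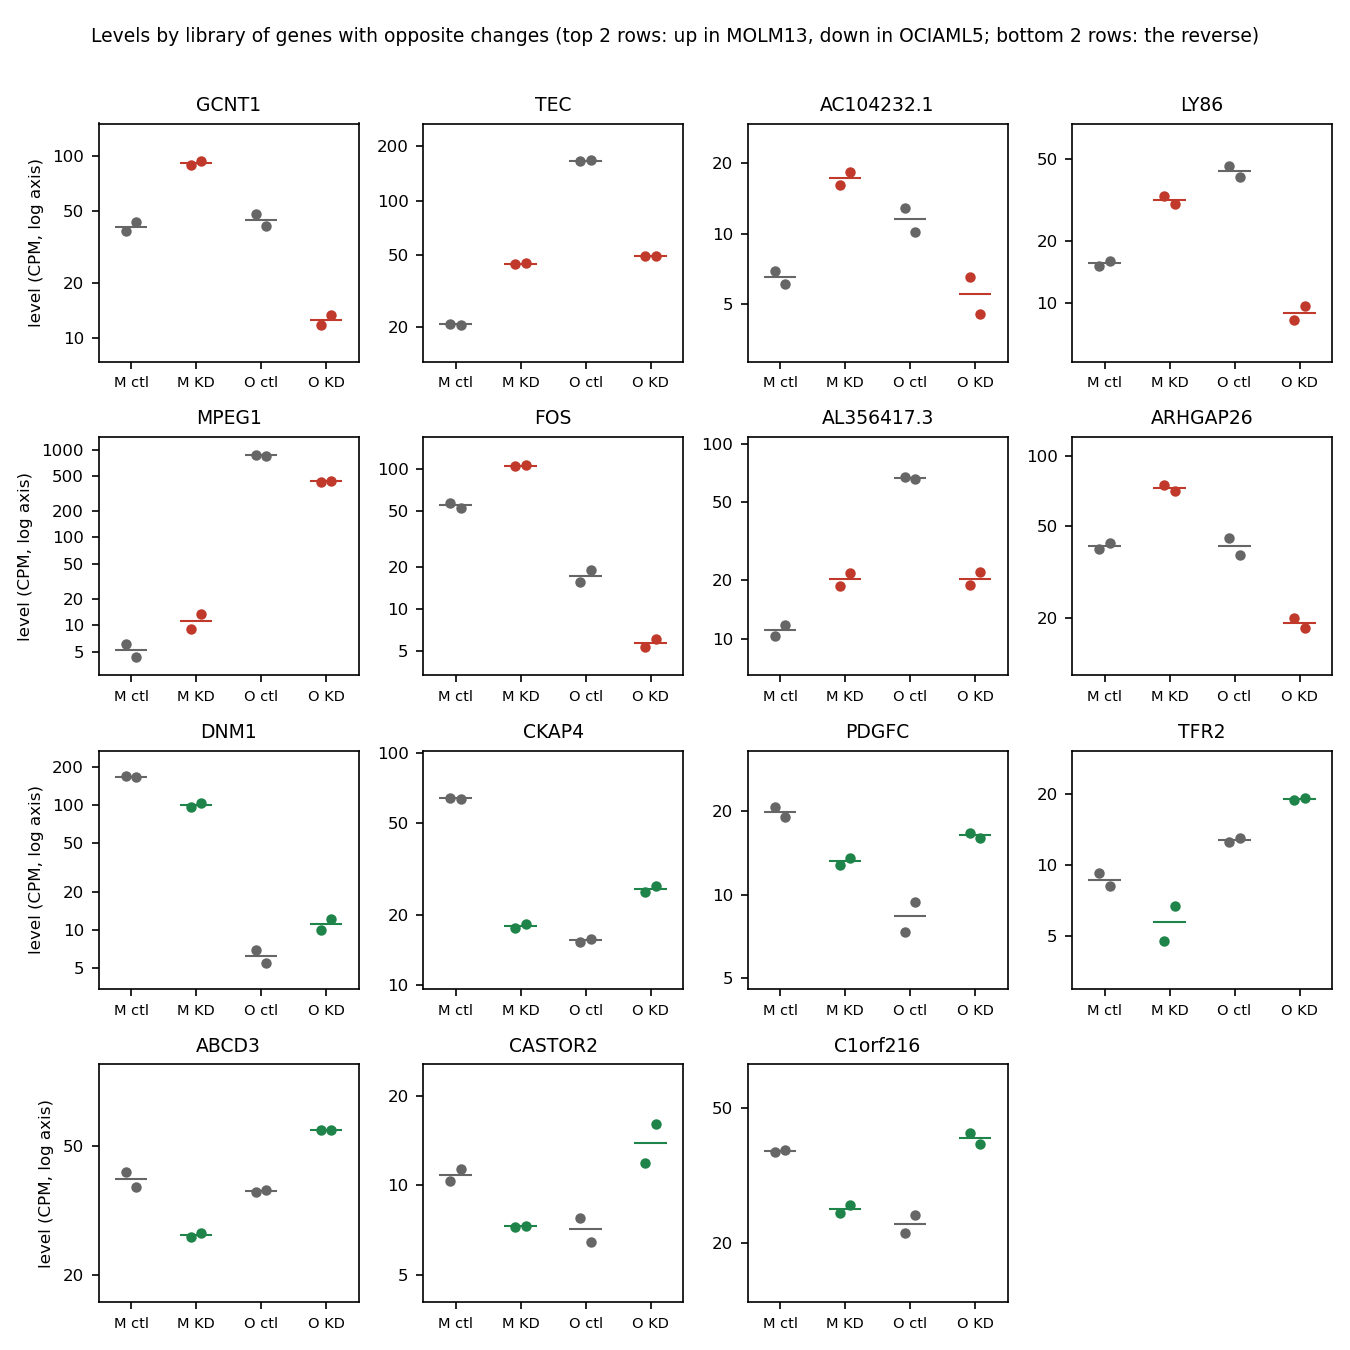
Level in CPM on a log axis in each of the 8 libraries for 15 genes with opposite changes, with MOLM13 as M and OCIAML5 as O, controls (ctl) in grey, knockdown (KD) in colour, 1 point per library and a bar at the mean of 2. In the upper 8 panels the colour rises over the controls in MOLM13 and falls in OCIAML5, as for GCNT1 with 89.3 and 94.1 CPM against 11.8 and 13.3 CPM after knockdown, and in the lower 7 panels the reverse holds.

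The controls of OCIAML5 bear on these calls, because the second pair differs from the first. With the PU.1 experiment's controls in place of the PSPC1 experiment's, 138 of the 256 genes up in MOLM13 and down in OCIAML5 were again in that class, as were 85 of the 208 in the reverse class. The 2 versions share all 4 MOLM13 libraries and both OCIAML5 knockdown libraries, and the genes were chosen by the first, so these counts are a description and no sign of stability. The difference passed with the other sign for 10 of the 256 and 5 of the 208, and did not pass for 47 and 46. GCNT1 had a difference of -3.28 with the second pair, LY86 -2.35, TEC -1.85, FOS -1.62 and DNM1 1.77, each in the direction first found. MPEG1, by contrast, had -0.17 (adjusted p = 0.4), with its second control pair at 226 and 237 CPM, below the 431 and 440.1 CPM of the knockdown on the same scale, and CASTOR2 had 0.48 (adjusted p = 0.087). Among all 3926 well-counted genes called, 177 passed with the other sign and 1323 did not pass. The part of hairpin, culture and batch in the gap between the 2 control pairs was not tested.

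**Figure D3:**
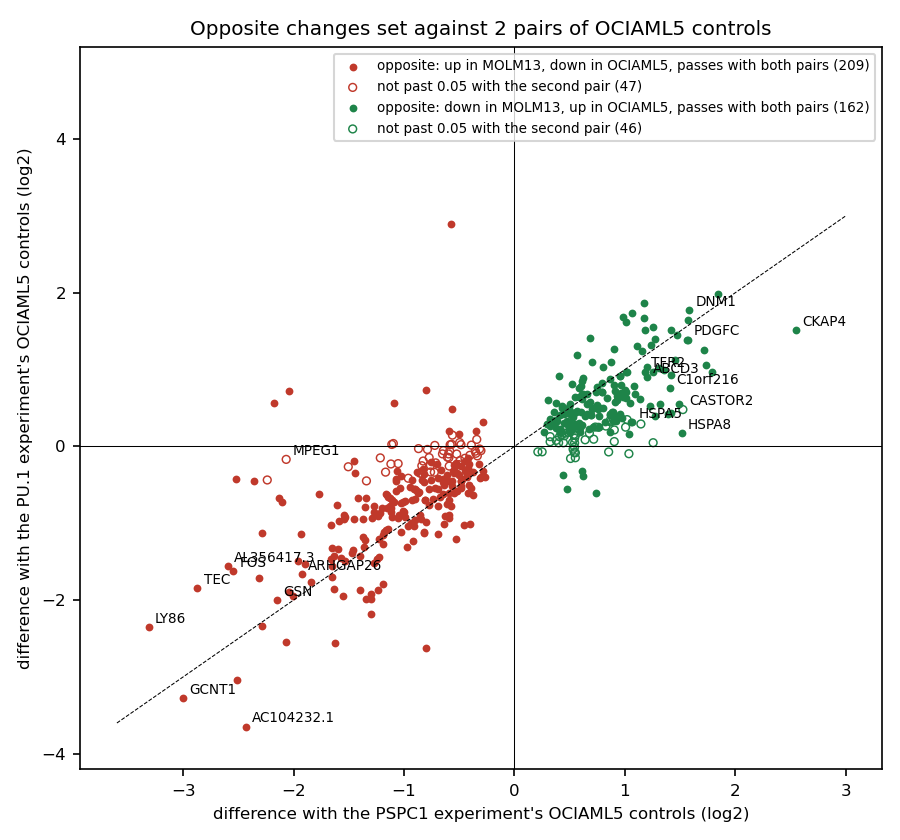
Difference between the lines (log2) for the 464 genes with opposite changes, computed with the OCIAML5 controls of the PSPC1 experiment (x axis) and with those of the PU.1 experiment (y axis), filled where the second also passed an adjusted p of 0.05 in either direction. GCNT1 and DNM1 lie near the dashed line of equal values, while MPEG1 at -0.17 and HSPA8 at 0.18 lie close to 0 on the y axis.

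Several of the largest differences outside the opposite changes came from genes that passed in 1 line alone. PIK3R3, a regulatory subunit of PI3-kinase (chromosome 1, 46040140 to 46133036), stood at 11.2 and 15.3 CPM (control) and 10.4 and 12.7 CPM (knockdown) in MOLM13, against 17.7 and 18.1 CPM (control) and 92.7 and 99.1 CPM (knockdown) in OCIAML5. It rose in OCIAML5 and did not pass in MOLM13 (-0.17, adjusted p = 0.26), for the largest difference upward among well-counted genes, 2.59 ± 0.17 (adjusted p = 6.7e-18), which was 1.55 with the second control pair. METTL7B, a methyltransferase-like protein of lipid droplets and the endoplasmic reticulum (chromosome 12, 55681546 to 55684611), stood at 29.3 and 29.9 CPM (control) and 28.7 and 30.999 CPM (knockdown) in MOLM13, against 96.5 and 103 CPM (control) and 11.4 and 11.2 CPM (knockdown) in OCIAML5. All 4 MOLM13 libraries overlapped while OCIAML5 lost most of the message (difference -3.16 ± 0.13, adjusted p = 4.5e-25). With the second pair, at 29.1 and 29.2 CPM, the METTL7B difference was -1.38. GATA2, a transcription factor of stem and mast cells (chromosome 3, 128479427 to 128493185), stood at 27.7 and 32.1 CPM (control) and 5.93 and 7.32 CPM (knockdown) in MOLM13, against 16.8 and 16.1 CPM (control) and 17.4 and 17.7 CPM (knockdown) in OCIAML5. It fell in MOLM13 and not detectably in OCIAML5 (0.09, adjusted p = 0.59), a difference of 2.25. Against the second control pair GATA2 fell in OCIAML5 too (-1.28, adjusted p = 9.2e-21), and the difference was 0.88. KANK2, an adaptor of focal adhesions and the cytoskeleton, had 1.98, and 1.08 with the second pair, where it fell in OCIAML5 as well (-0.56, adjusted p = 1.8e-04). PIM1, a serine/threonine kinase induced by JAK-STAT signalling (chromosome 6, 37170203 to 37175426), stood at 54.1 and 56.6 CPM (control) and 9.89 and 7.74 CPM (knockdown) in MOLM13, against 268 and 273 CPM (control) and 205 and 204 CPM (knockdown) in OCIAML5. It fell in both lines but far more in MOLM13 (difference 2.26 ± 0.10, adjusted p = 3.2e-23). With the second pair its change in OCIAML5 was 0.01 (adjusted p = 0.84), so that it passed in MOLM13 alone, and the difference was 2.67. TXNIP, an inhibitor of thioredoxin and glucose uptake, rose in both, from 201 and 194 to 688 and 645 CPM in MOLM13 and from 37.9 and 34.8 to 495 and 471 CPM in OCIAML5. Its difference of 1.98 was 0.06 (adjusted p = 0.44) with the second pair, in which it stood at 139 and 136 CPM.

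Among well-counted genes with a called difference, a change of at least 2-fold in 1 line with less than 0.2 (log2) in the other was found for 19 genes up and 23 down in MOLM13, and for 14 up and 26 down in OCIAML5. TDRD7, a tudor protein of RNA granules, rose from 45.5 and 45.5 to 156 and 147 CPM in MOLM13 and stood at 28.8 and 33.8 and then 34.2 and 31.9 CPM in OCIAML5 (difference -1.65). SAMHD1, a dNTP hydrolase and restriction factor, rose from 70.8 and 65.6 to 180.4 and 194 CPM in MOLM13 against 179 and 167 and then 195 and 189 CPM in OCIAML5. Its small rise in OCIAML5 passed as well (0.15, adjusted p = 0.011). The SAMHD1 difference of -1.30 reversed to 0.22 (adjusted p = 0.015) with the second control pair, at 60.4 and 59.8 CPM. ZC3H6, a zinc finger protein, differed by -1.20. With the second pair TDRD7 and ZC3H6 rose in OCIAML5 too (0.60, adjusted p = 8.6e-11, and 0.54, adjusted p = 6.0e-06), by less than in MOLM13. Among the falls in MOLM13, DRAM1, a p53-induced autophagy regulator, went from 45.4 and 46.2 to 12.1 and 14.6 CPM and TP53I11 from 46.2 and 47.1 to 16.4 and 14.2 CPM, with differences of 1.94 and 1.70; that of DRAM1 did not pass with the second pair (0.25, adjusted p = 0.13). TP53I11 then fell in OCIAML5 as well (-0.43, adjusted p = 7.2e-05), with a difference of 1.18. In OCIAML5, ARSB, a lysosomal sulfatase, rose from 55.1 and 58.7 to 163 and 171 CPM (difference 1.38) and DEDD2, a death effector domain protein, from 6.85 and 6.702 to 19.004 and 19.005 CPM (1.52), and with the second pair these differences were 0.97 and 0.74. ARSB also passed in MOLM13 (0.18, adjusted p = 0.015). RASSF4, a RAS association domain protein, fell from 76.04 and 80.9 to 18.1 and 16.3 CPM in OCIAML5 with 116 and 116 and then 122 and 119 CPM in MOLM13 (difference -2.23, and -2.20 with the second pair). IRF8, a transcription factor of monocytes and dendritic cells (chromosome 16, 85898803 to 85922609), fell from 342 and 354 to 97.6 and 96.7 CPM in OCIAML5 with 324 and 326 and then 339 and 355 CPM in MOLM13. The IRF8 levels of the lines stood close together before knockdown and far apart after it, and its difference of -1.94 ± 0.06 was -1.05 with the second pair. METTL7B overlaps ITGA7, GATA2 overlaps GATA2-AS1, SAMHD1 overlaps TLDC2 and TP53I11 overlaps TSPAN18 on the opposite strand.

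Chaperones of the endoplasmic reticulum, which fold secreted and membrane proteins and are induced when unfolded proteins build up there, were the pathway list with the most opposite changes upward in OCIAML5, 5 of 20 members: HSPA5, CALR, HYOU1, DNAJB11 and MANF. All 20 were well counted, and 2.33% of all well-counted genes were in that class. In MOLM13 14 members fell and 2 rose, beside 29.5% and 27.6% of all genes tested, and in OCIAML5 6 fell and 10 rose, beside 28.4% and 27.5%. The difference was higher for 15 of 20 (18% of all genes tested) and lower for none, with a median of 0.63 against 0.06 over all genes tested. HSPA5, the chaperone BiP (chromosome 9, 125234853 to 125241330), stood at 470.1 and 490.1 CPM (control) and 370.0 and 383 CPM (knockdown) in MOLM13, against 432 and 436 CPM (control) and 718 and 707 CPM (knockdown) in OCIAML5. No library overlapped between control and knockdown in either line, and the difference was 1.06 ± 0.06 (adjusted p = 1.4e-20). CALR, the calcium-binding chaperone calreticulin (chromosome 19, 12938578 to 12944489), stood at 1287 and 1293 CPM (control) and 612 and 605 CPM (knockdown) in MOLM13, against 789.7 and 819 CPM (control) and 912 and 921 CPM (knockdown) in OCIAML5. It was higher in MOLM13 before knockdown and higher in OCIAML5 after it (difference 1.27 ± 0.05, adjusted p = 1.0e-24). MANF, a secreted stress factor of this compartment, had -1.05 in MOLM13 and 0.26 in OCIAML5. XBP1, a transcription factor of the unfolded protein response, fell in both lines (-1.98 and -1.54), as did HERPUD1, of protein degradation from the reticulum, by changes that did not differ past the threshold (-1.20 and -1.28, adjusted p = 0.68). With the second control pair 16 members were higher and 1 lower and the median was 0.34, but HSPA5 then did not pass in OCIAML5 (-0.03) and CALR and MANF fell there (-0.69 and -0.50). The HERPUD1 difference was then 1.33 (adjusted p = 3.2e-16).

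The 250 bases before the start of 4 of these genes are printed because their promoters carry an element by which such chaperones are known to be induced together. They are from RefSeq on GRCh38.p14, each read along the strand of its gene, with capitals marking each match to CCAAT, 9 bases of any kind and then CCACG, on either strand. Over 300-base windows that also hold 50 bases after the start, a match was found in 9 of 26 windows of the list (34.6%) and in 0.0769% of all 35116 windows. These 26 windows came from 19 of the 20 genes, and the 7 genes with a match were CALR, CANX, CRELD2, HSP90B1, HSPA5, PDIA6 and XBP1.
HSPA5 (chr9:125241344-125241593, minus strand): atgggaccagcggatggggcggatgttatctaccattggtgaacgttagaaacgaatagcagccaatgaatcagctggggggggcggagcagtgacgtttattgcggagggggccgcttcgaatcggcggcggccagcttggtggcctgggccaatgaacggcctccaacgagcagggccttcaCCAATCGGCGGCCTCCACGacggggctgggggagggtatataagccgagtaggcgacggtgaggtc
CALR (chr19:12938359-12938608, plus strand): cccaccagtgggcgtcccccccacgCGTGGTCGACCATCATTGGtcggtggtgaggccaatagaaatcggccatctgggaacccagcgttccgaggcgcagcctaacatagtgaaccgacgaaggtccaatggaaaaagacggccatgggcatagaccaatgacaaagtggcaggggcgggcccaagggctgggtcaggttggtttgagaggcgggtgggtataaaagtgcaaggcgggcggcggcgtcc
HSP90B1 (chr12:103930160-103930409, plus strand): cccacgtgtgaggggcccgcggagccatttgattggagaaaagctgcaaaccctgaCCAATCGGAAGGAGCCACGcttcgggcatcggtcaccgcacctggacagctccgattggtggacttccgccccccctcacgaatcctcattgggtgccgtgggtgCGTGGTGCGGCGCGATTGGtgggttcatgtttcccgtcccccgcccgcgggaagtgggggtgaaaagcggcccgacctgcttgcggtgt
CRELD2 (chr22:49918384-49918633, plus strand): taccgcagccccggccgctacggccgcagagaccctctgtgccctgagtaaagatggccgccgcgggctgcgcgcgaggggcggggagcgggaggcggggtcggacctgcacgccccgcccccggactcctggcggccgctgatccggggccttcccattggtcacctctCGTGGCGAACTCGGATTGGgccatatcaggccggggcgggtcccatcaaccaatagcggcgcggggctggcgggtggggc
The match begins 66 bases before the start in HSPA5, 225 in CALR and 80 in CRELD2, and HSP90B1 holds 2, at 194 and 89. All 7 genes with a match had a difference past the threshold and higher in OCIAML5, from 0.31 for CANX to 1.27 for CALR, and so did MANF (1.32), HYOU1 (0.77) and DNAJB11 (0.82), in whose windows these letters were not found. HSP90B1, the chaperone GRP94, fell in MOLM13 from 617 and 633 to 396 and 396 CPM and stood at 633 and 621 and then 649 and 635 CPM in OCIAML5, where it fell against the second control pair (-0.25, adjusted p = 3.0e-11). CRELD2, a secreted disulfide isomerase of the same stress response, rose in OCIAML5 from 19.4 and 20.7 to 42.4 and 39.95 CPM against 17.6 and 17.3 and then 17.1 and 18.6 CPM in MOLM13. A match is a description of letters and not a bound site.

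**Figure D4:**
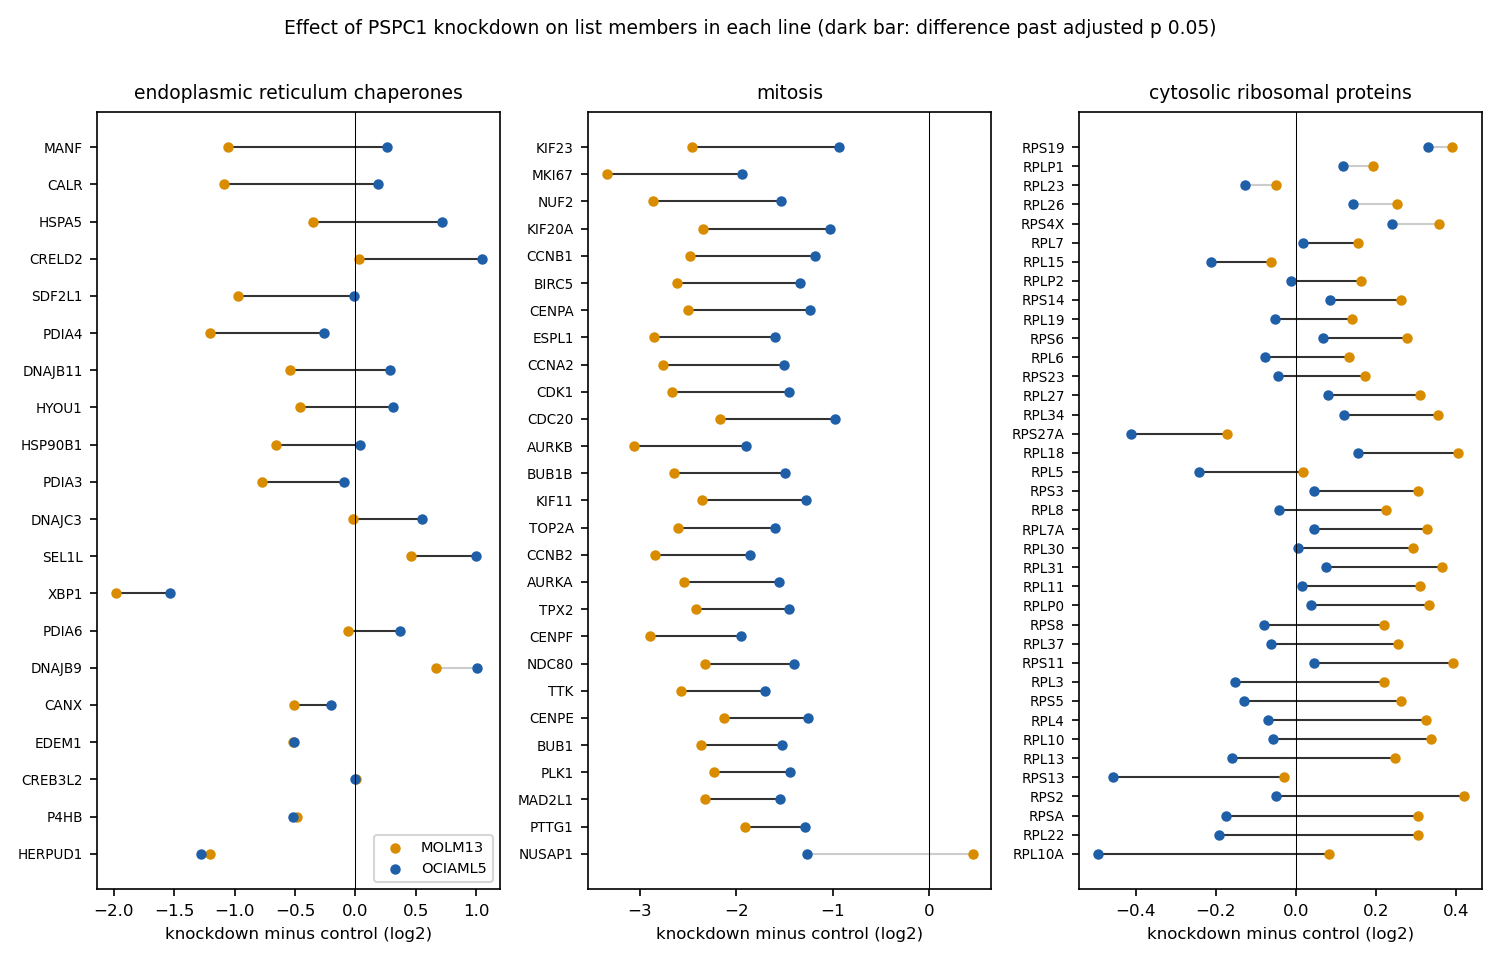
Log2 change on knockdown in MOLM13 (orange) and OCIAML5 (blue) for each tested member of 3 lists, with a dark bar where the difference passed an adjusted p of 0.05. The endoplasmic reticulum chaperones straddle 0, as HSPA5 at -0.35 and 0.72 does, the mitosis genes fell in both lines and further in MOLM13 with NUSAP1 apart, and the ribosomal protein genes lie mostly above 0 in MOLM13 and around 0 in OCIAML5.

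Genes of cell division fell in both lines, and more in MOLM13. Of 27 mitosis genes 26 fell in each line and 26 had a higher difference, with a median of 1.08, and of 31 replication genes all 31 fell in each line and 25 had a higher difference, with a median of 0.86. No member of either list had a lower one. Over all genes tested 29.5% fell in MOLM13 and 28.4% in OCIAML5, and 18% had a higher difference. MKI67, a proliferation marker (chromosome 10, 128096659 to 128126385), stood at 606 and 618 CPM (control) and 56.9 and 63.6 CPM (knockdown) in MOLM13, against 928 and 849 CPM (control) and 227 and 236 CPM (knockdown) in OCIAML5. MOLM13 started below OCIAML5 and fell to a far lower level (difference 1.40 ± 0.07, adjusted p = 3.3e-22). TOP2A, topoisomerase II alpha, went from 481 and 480.2 to 81.1 and 76.999 CPM in MOLM13 and from 669 and 663 to 222 and 218 CPM in OCIAML5 (difference 1.01 ± 0.06). MCM4, a subunit of the replicative helicase, went from 893 and 919.9 to 126 and 124 CPM and from 695 and 679 to 179 and 180.2 CPM (difference 0.92), and FEN1, the flap endonuclease, from 102 and 102 to 15.2 and 12.5 CPM and from 91.5 and 94.7 to 39.5 and 35.9 CPM (1.58). With the second control pair 25 mitosis and 29 replication genes were higher, with medians of 0.94 and 0.80. NUSAP1, a spindle protein and the mitosis gene without a call, was under 1 CPM in all 8 libraries.

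Promoters of the replication genes are shown for comparison, since the family of E2F factors is known to act on many of them. Capitals mark TTTGGCGC or TTTCCCGC on either strand, which was found in 15 of 35 windows of the list (42.9%), which came from 28 of its 31 genes, and in 2.27% of all 35116 windows.
MCM3 (chr6:52284743-52284992, minus strand): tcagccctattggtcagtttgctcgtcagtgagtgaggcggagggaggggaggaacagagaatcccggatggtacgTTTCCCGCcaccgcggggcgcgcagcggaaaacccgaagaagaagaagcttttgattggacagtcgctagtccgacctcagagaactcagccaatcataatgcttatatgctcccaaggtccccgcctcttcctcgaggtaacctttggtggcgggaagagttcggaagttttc
PCNA (chr20:5126623-5126872, minus strand): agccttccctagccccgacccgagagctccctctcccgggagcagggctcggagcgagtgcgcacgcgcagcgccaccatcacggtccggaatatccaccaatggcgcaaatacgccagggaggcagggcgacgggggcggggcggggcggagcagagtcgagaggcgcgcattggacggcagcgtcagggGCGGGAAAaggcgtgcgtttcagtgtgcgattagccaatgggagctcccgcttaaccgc
MCM3, another helicase subunit, changed by -2.04 in MOLM13 and -1.78 in OCIAML5, and PCNA, the sliding clamp of DNA polymerase, by -1.59 and -0.73, differences of 0.27 (adjusted p = 0.0035) and 0.86 (adjusted p = 1.4e-14).

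Replication-dependent histone messages, which normally lack a poly(A) tail, rose in both lines, 17 of 25 in MOLM13, where 1 fell, and 20 in OCIAML5, and the difference was higher for 16 and lower for none (median 1.32), beside 27.6% and 27.5% of all genes tested that rose in the lines and 18% with a higher difference. H2AC6 (chromosome 6, 26124145 to 26139116) went from 14.1 and 12.1 to 95.2 and 93.1 CPM in MOLM13 and from 4.13 and 5.25 to 104 and 97.97 CPM in OCIAML5. H2BC12 went from 14.4 and 14.7 to 87.8 and 87.9 CPM and from 7.77 and 7.71 to 91.7 and 101 CPM. For both genes OCIAML5 started below MOLM13 and the knockdown libraries of the lines stood close together (differences 1.603 and 1.04). Of the 25 members 1 was well counted, and 9 were called higher without OCIAML5 control replicate 1 and 10 without MOLM13 control replicate 2. Histone genes share near-identical copies, so how reads were split among them is uncertain.

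Targets of p53, the tumor suppressor that halts the cell cycle or starts apoptosis, rose in both lines and more in OCIAML5. Of 29 genes 20 rose and 1 fell in MOLM13, 26 rose and 1 fell in OCIAML5, and 22 had a higher difference and none a lower one (median 0.61). Among all genes tested 27.6% rose in MOLM13 and 27.5% in OCIAML5, and 18% had a higher difference. CDKN1A, the cell cycle inhibitor p21 (chromosome 6, 36676460 to 36687339), stood at 372 and 354 CPM (control) and 1137 and 1100.1 CPM (knockdown) in MOLM13, against 179 and 183 CPM (control) and 1213 and 1283 CPM (knockdown) in OCIAML5. The knockdown levels were near each other while the controls of OCIAML5 were lower (difference 1.16 ± 0.06, adjusted p = 9.7e-22). ZMAT3, an RNA-binding protein, went from 66.6 and 73.2 to 117 and 117 CPM and from 48.9 and 42.99 to 201 and 198 CPM (difference 1.37 ± 0.09). With the second control pair 13 were higher and 3 lower and the median was 0.31, with CDKN1A at 0.34 and ZMAT3 at 0.70. Of 15 BCL2 family genes, which set the threshold of apoptosis, 7 were higher (18% of all genes tested) and 2 lower (12.5%), with a median of 0.36, and of its pro-apoptotic members BBC3 was higher (0.21 in MOLM13, 0.83 in OCIAML5). BMF, another, was lower (1.06 and 0.23, difference -0.83) and turned to 0.67 with the second pair. BBC3 and BMF were named after their values were seen.

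Cytosolic ribosomal protein genes differed in the other sense: 33 of 38 had a lower difference and none a higher one, with a median of -0.26, beside 12.5% of all genes tested with a lower difference. In MOLM13 32 rose and 1 fell, beside 27.6% and 29.5% of all genes tested. In OCIAML5 5 rose and 11 fell, beside 27.5% and 28.4%, so the falls there were near the share of all genes. Those counts turned to 16 and 6 when libraries were scaled by size alone, while the difference itself was lower for 29 under that scaling. RPSA, of the small subunit, went from 1172 and 1129.7 to 1454 and 1391 CPM in MOLM13 and from 985 and 1035 to 899.9 and 891 CPM in OCIAML5. It was 1 of 5 members with opposite changes, all down in OCIAML5, beside 2.87% of all well-counted genes in that class. Its difference was -0.48 ± 0.05 (adjusted p = 5.7e-10). RPL10A, of the large subunit, stood at 1180.4 and 1144 and then 1249 and 1212 CPM in MOLM13 (0.08, adjusted p = 0.063) and fell from 807 and 845 to 581 and 591 CPM in OCIAML5. The changes are small, each well under 2-fold, and these genes have many processed pseudogenes, so how reads were split is uncertain. Against the second pair 34 were lower (median -0.40). The factors that build ribosomes went the other way: 33 of 34 fell in MOLM13 and 31 in OCIAML5, beside 29.5% and 28.4% of all genes tested. Of these factors 13 had a higher difference (38.2%, beside 18%) and none a lower one (median 0.20). Against the second pair 12 were higher and 3 lower.

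Receptors for hematopoietic cytokines had more lower than higher differences, 11 of 21 against 5 (median -0.43). Beside 12.5% lower and 18% higher over all genes tested, the higher count is near the background. FLT3, the receptor tyrosine kinase (chromosome 13, 28003274 to 28100592), stood at 323 and 319 CPM (control) and 170.0 and 164 CPM (knockdown) in MOLM13, against 234 and 244 CPM (control) and 25.9 and 25.5 CPM (knockdown) in OCIAML5. It fell in both lines without overlap and reached a much lower level in OCIAML5 (difference -2.27 ± 0.08, adjusted p = 7.5e-29). With the second control pair, at 63.8 and 65.9 CPM, the FLT3 difference was -0.39. IFNGR1, a chain of the interferon gamma receptor, went from 86.3 and 81.7 to 60.4 and 63.8 CPM in MOLM13 and from 136 and 137 to 50.2 and 49.96 CPM in OCIAML5 (difference -1.01). CSF2RA, the alpha chain of the receptor for GM-CSF, which OCIAML5 received in its medium, stood at 39.1 and 36.3 and then 41.2 and 39.03 CPM in MOLM13 and fell from 23.6 and 24.03 to 8.897 and 6.61 CPM in OCIAML5 (difference -1.69, and -0.34, adjusted p = 0.12, with the second pair). The shared beta chain CSF2RB stood at 66.7 and 62.7 and then 79.9 and 80.1 CPM in OCIAML5 and had a difference of 0.33. These 2 chains were named after their values were seen. Feedback genes of the ERK and JAK-STAT pathways, which such receptors drive, had 8 of 19 higher and 1 lower (median 0.47), beside the same background. CISH, an inhibitor of STAT5 signalling also named after its values were seen, fell from 51.7 and 45.6 to 15.9 and 16.99 CPM in MOLM13 and less, from 83.5 and 84.3 to 74.2 and 70.1 CPM, in OCIAML5, a difference of 1.35 that was 1.35 with the second pair.

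Several myeloid and immune lists held higher and lower differences side by side. Of azurophil granule genes 38.5% were called, of interferon-stimulated genes 36.8% and of MHC class II genes 23.5%, beside 30.5% of all genes tested. These shares pool both directions, which over all genes tested were 18% higher and 12.5% lower. Calls of interferon-stimulated genes were mostly lower, and those of MHC class II genes all lower. Of 16 monocyte and macrophage markers 2 were higher and 5 lower (median -0.37), and their summed level was 871 to 872 CPM in the MOLM13 controls, 782 to 784 CPM after knockdown, 1573 to 1581 CPM in the OCIAML5 controls and 814 to 819 CPM after knockdown. Of 38 interferon-stimulated genes, antiviral effectors, 33 rose in MOLM13 and 31 in OCIAML5, beside 27.6% and 27.5% of all genes tested. Their difference was lower for 12 and higher for 2 (median -0.36). MX2, a restriction factor chosen after its values were seen, went from 6.35 and 5.02 to 24.5 and 28.4 CPM in MOLM13 and from 8.21 and 5.63 to 11.1 and 9.84 CPM in OCIAML5. MHC class II genes had 4 of 17 lower and none higher, which became 2 lower and 4 higher with the second control pair, and class I genes 6 lower and 3 higher of 17. Azurophil granule genes had 4 higher and 1 lower of 13, with a summed level of 3231 to 4983 CPM in MOLM13 and 217 to 231 CPM in OCIAML5; with the second control pair 1 was higher and 7 lower. Later granule, mast cell, B lymphocyte and epithelial lists had at most 4 members tested, of which 1 was higher and 1 lower, 1 higher, 1 lower and 2 higher in turn, and the erythroid and megakaryocyte lists had none called. T and NK lymphocyte markers had 3 higher and 1 lower of 7. CD4 was under 1 CPM in all 4 OCIAML5 libraries and CD247 under 1 CPM in 7 of 8, while the lower member, NCAM1, an adhesion molecule, fell in both lines (-0.53 and -2.03). Stem and progenitor genes had 3 higher and 1 lower of 6, among them LAPTM4B, a lysosomal membrane protein, which fell in both lines (-0.51 and -0.22).

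Immediate early factors, which answer growth signals within minutes, had 10 higher and 2 lower of 19 (median 0.41), beside 18% and 12.5% of all genes tested, with FOS and FOSL2 the lower ones. FOSL2, another AP-1 subunit (chromosome 2, 28392448 to 28417312), fell from 125 and 125 to 87.5 and 88.5 CPM in MOLM13 and from 292 and 292 to 67.04 and 66.2 CPM in OCIAML5 (difference -1.63 ± 0.07, adjusted p = 2.1e-23). EGR1, a zinc finger factor (picked with its values known), rose from 32.4 and 28.9 to 89.8 and 94.8 CPM and from 8.37 and 10.8 to 81.3 and 82.5 CPM (difference 1.52). Paraspeckle genes had 11 higher and 1 lower of 19 (median 0.22). NEAT1, the RNA scaffold, was the lower one, at 175 and 179.9 CPM (control) and 405 and 414 CPM (knockdown) in MOLM13, against 211 and 199 CPM (control) and 317 and 315 CPM (knockdown) in OCIAML5. It rose in both lines and more in MOLM13 (difference -0.58 ± 0.06, adjusted p = 1.6e-10), while PSPC1's partner SFPQ fell by nearly the same amount in both (-0.47 and -0.46, 95% interval of the difference -0.10 to 0.12) and NONO passed in neither. NDC1, a nuclear pore membrane protein, fell from 147 and 148 to 35.9 and 33.99 CPM and from 144 and 148 to 41.5 and 42.2 CPM, a difference of 0.28 (adjusted p = 0.015) that missed the threshold with DESeq2. SPI1 stood at 254 and 245 CPM (control) and 326 and 352 CPM (knockdown) in MOLM13, against 201 and 179.6 CPM (control) and 201 and 217 CPM (knockdown) in OCIAML5. It rose in MOLM13 (0.44) and by little in OCIAML5 (0.13, adjusted p = 0.023), where it did not pass with the second control pair (0.03, adjusted p = 0.62), and its difference was -0.31 (adjusted p = 5.8e-04).

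Glycolysis and hypoxia genes had 9 higher and 8 lower of 25 (median -0.09). GAPDH, of glycolysis, fell from 1834 and 1799 to 1284 and 1267 CPM in MOLM13 and stood at 1735 and 1872 and then 1724 and 1772 CPM in OCIAML5 (difference 0.47). With the second pair GAPDH fell in OCIAML5 too (-0.36, adjusted p = 3.1e-22), and the difference was 0.15. SLC2A3, a glucose transporter, was an opposite change, from 61.7 and 55.6 to 37.2 and 33.99 CPM and from 21.5 and 24.1 to 29.2 and 33.3 CPM (difference 1.18). Cholesterol synthesis genes had 9 lower and 3 higher of 23 (median -0.33). With the second control pair 6 were lower and 5 higher (median -0.10). Targets of ATF4, the factor of the amino acid stress response, fell in both lines, 28 of 29 and 26 of 29, beside 29.5% and 28.4% of all genes tested. They had 10 higher and 6 lower differences (median -0.02). With the second control pair 26 were higher and 1 lower (median 1.09), the largest shift among the 24 pathway lists. Over all 16457 genes tested that pair gave 3246 higher and 2297 lower differences. NF-kB and inflammatory genes had 7 higher and 3 lower of 19, HOXA and MEIS1 program genes 3 and 6 of 17, iron, heme and redox genes 7 and none of 20, lysosome genes 4 and 8 of 24, integrins and adhesion genes 2 and 3 of 19, and mitochondrially encoded messages none and 3 of 13. Of all genes tested 18% were higher and 12.5% lower, 30.5% in all. The pooled shares of the iron (35%), integrin (26.3%) and mitochondrial (23.1%) lists were near that. However, the iron calls were all higher and the mitochondrial calls all lower. With the second control pair the iron list had 6 higher and 3 lower, the integrin list 4 and 7 and the mitochondrial list 8 and 4. The NF-kB list then had 9 higher and 3 lower, the HOXA list 5 and 6 and the lysosome list 3 and 13.

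**Figure D5:**
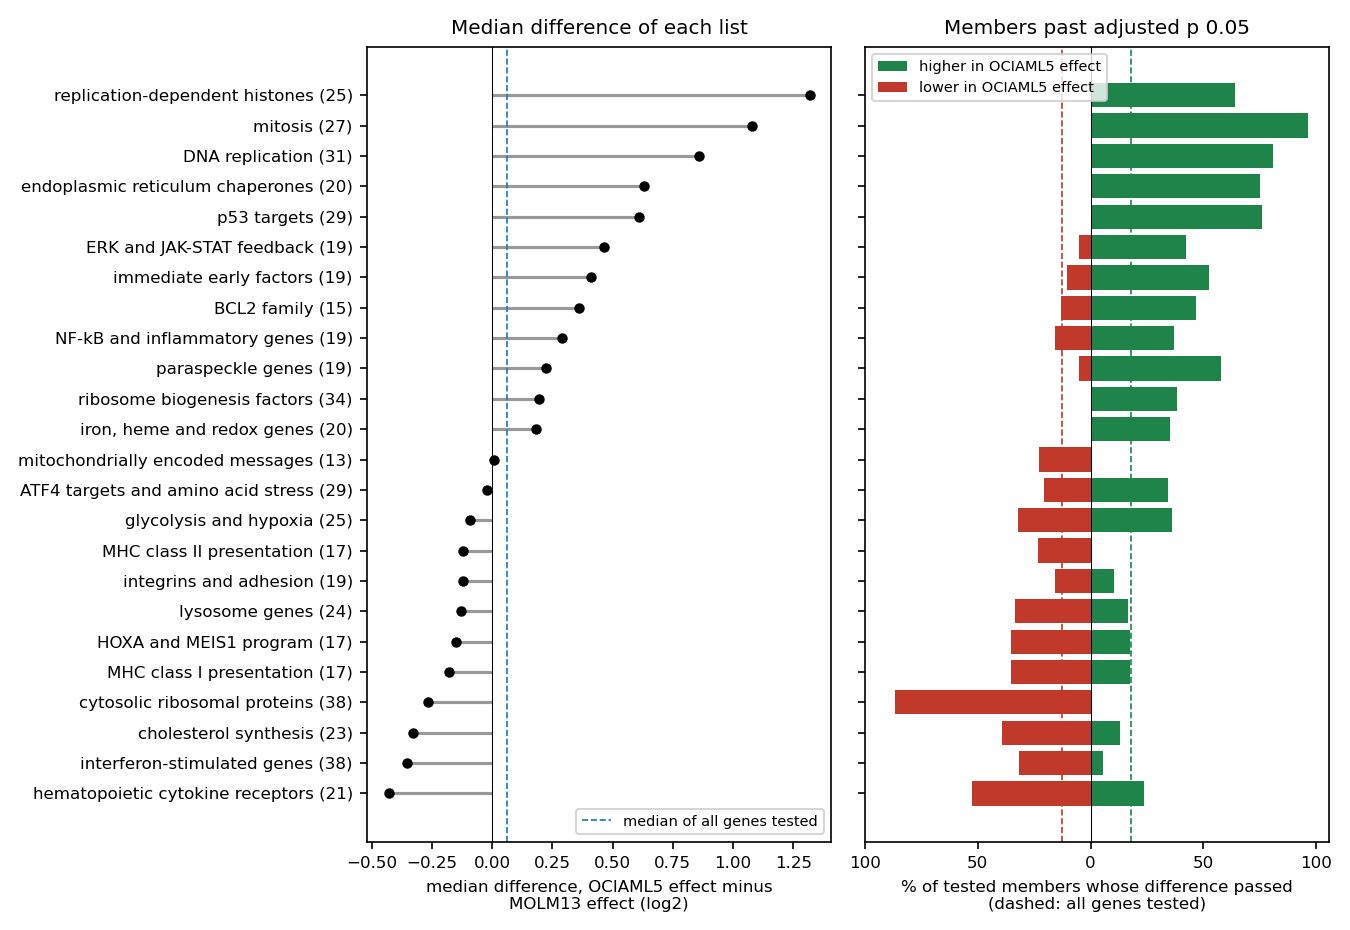
Median difference between the lines (log2, left) and percent of tested members whose difference passed an adjusted p of 0.05 (right, green higher and red lower) for 24 pathway lists, with the number of members tested in brackets and dashed lines for all genes tested. Histones, mitosis, replication, endoplasmic reticulum chaperones and p53 targets lie to the right (medians 0.61 to 1.32), and cytokine receptors (-0.43), interferon-stimulated genes (-0.36), cholesterol synthesis (-0.33) and ribosomal proteins (-0.26) to the left. All values use the OCIAML5 controls of the PSPC1 experiment, and with the second pair the cholesterol median was -0.10.

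The second experiment gives a readout in OCIAML5 that shares no library with the comparison of the lines. After PU.1 knockdown, set against its own controls, 2609 well-counted genes were higher (29.3%) and 3990 lower (44.8%). Of the 256 genes up in MOLM13 and down in OCIAML5 after PSPC1 knockdown, 65 were higher and 141 lower (55.1%), with a median change of -0.24. Of the 208 in the reverse class, 81 were higher (38.9%) and 82 lower (39.4%). A share of higher genes above 29.3% was also found among genes that moved the same way with the larger change in OCIAML5 (43.2%). A share of lower genes above 44.8% was also found outside the opposite changes, 67% of genes that moved the same way with the larger change in MOLM13 and 47.9% of those that passed in MOLM13 alone. LY86 changed by -3.48 after PU.1 knockdown, TEC by -3.01, FOS by -2.24, MPEG1 by -6.89 and AL356417.3 by -4.70, whereas GCNT1 changed by 0.09 (adjusted p = 0.23). SPI1 itself, the target of that knockdown, changed by -2.19. PSPC1 was lower after PU.1 knockdown as well (-0.88), as was NDC1 (-0.97).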

How the data were processed

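The deposited values are raw counts of reads per gene, made by the authors. Per the submitters' processing notes, which state no roles or order, Trim Galore 0.6.7, STAR 2.7.10a, HTSeq 2.0.2, DESeq2 1.36.0 and GRCh38 were used. Neither the annotation release nor the strand setting is given in the sources used. Depth was 15372383 to 22757998 counts per library, and 0 columns were left unmapped.

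From these counts, genes were filtered with filterByExpr, scaled by TMM and fitted with edgeR 4.0.16 (R 4.3.3, limma 3.58.1) over the 8 libraries in 4 groups. The quasi-likelihood F test was used, with Benjamini-Hochberg adjustment over all genes tested at 0.05. Every adjusted p and standard error comes from that fit unless another tool is named. The steps were tried on simulated counts with the spread fitted to these libraries. That cannot show how the test behaves if paired libraries are technical repeats. CPM values use the TMM-scaled library sizes. Fold changes are log2, and intervals are 95%.

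Members and gene lists were chosen with earlier results of these data known. Named genes were PSPC1, SPI1 and NDC1, and the 6 largest well-counted differences each way. The 8 opposite changes each way with the largest smaller change were named as well. For each line and direction, the 3 largest changes of at least 2-fold with under 0.2 (log2) in the other line were added. The last were 2 members of each of the 10 lists with the highest share called. Of the picked genes, 1 is not reported here. Alternatives were DESeq2 1.42.0, other scalings, filters and thresholds, a replicate block and each library left out. The exchange of OCIAML5 controls and the PU.1 knockdown values were added after seeing the data. Promoters were read from RefSeq windows, and figures drawn with Python 3.11.15 and matplotlib 3.10.9.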

Additional observations from a re-analysis of the deposited data

Results flagged for a closer look

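Of the 51 genes named by rule and reported, 50 had an effect of PSPC1 knockdown that differed between the lines by the test of the difference itself (edgeR, adjusted p of 0.05), which is how most of them were chosen. All values are log2, OCIAML5 minus MOLM13. Among genes with opposite changes, those up in OCIAML5 were CKAP4 at 2.55, DNM1 at 1.59, PDGFC at 1.56, CASTOR2 at 1.53, C1orf216 at 1.41, ABCD3 at 1.20 and TFR2 at 1.18. Those down in OCIAML5 were LY86 at -3.31, GCNT1 at -3.00, TEC at -2.87, AL356417.3 at -2.60, FOS at -2.54, AC104232.1 at -2.43, MPEG1 at -2.07 and ARHGAP26 at -1.93.

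Higher differences that came mainly from 1 line or from changes of unequal size were PIK3R3 at 2.59, PIM1 at 2.26, GATA2 at 2.25, KANK2 at 1.98, TXNIP at 1.98, DRAM1 at 1.94, TP53I11 at 1.70, DEDD2 at 1.52, ARSB at 1.38 and NDC1 at 0.28. Lower ones were METTL7B at -3.16, RASSF4 at -2.23, IRF8 at -1.94, TDRD7 at -1.65, SAMHD1 at -1.30, ZC3H6 at -1.20 and SPI1 at -0.31.

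Members named from the lists were higher for H2AC6 at 1.603, FEN1 at 1.58, MKI67 at 1.40, ZMAT3 at 1.37, CALR at 1.27, SLC2A3 at 1.18, CDKN1A at 1.16, HSPA5 at 1.06, H2BC12 at 1.04, TOP2A at 1.01, MCM4 at 0.92, GAPDH at 0.47 and LAPTM4B at 0.29. They were lower for FLT3 at -2.27, FOSL2 at -1.63, IFNGR1 at -1.01, RPL10A at -0.58 and RPSA at -0.48.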

How the results depend on the processing

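Of 816 values of the 51 named genes under the other alternatives, 813 kept direction and side of the threshold, 3 no longer passed, all for NDC1, and 0 reversed. With OCIAML5 controls taken from the PU.1 experiment, an alternative chosen after seeing the data, 45 kept both, TXNIP, CASTOR2, MPEG1, DRAM1 and LAPTM4B no longer passed (LAPTM4B at 0.07), and SAMHD1 reversed to 0.22; the cause was not tested. That exchange also gave r = 0.779 between the effects and a change of 0.0127 in the SD of the distance between lines, which was 0.0289 before.

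Opposite changes up in OCIAML5 numbered 137 with DESeq2 and 126 at an adjusted p of 0.01. Asking for at least 2-fold left 1381 differences (687 higher, 694 lower), 3425 changes in MOLM13, 3136 in OCIAML5, 441 well-counted differences and 168 opposite changes (55 up and 113 down in OCIAML5), fewer by construction. Leaving out each library in turn gave 4354 to 4832 differences (2597 to 2845 higher, 1747 to 1987 lower), 8192 to 9650 changes in MOLM13, 8055 to 9345 in OCIAML5, 3451 to 3782 well-counted differences, 383 to 469 opposite changes (164 to 203 up, 215 to 266 down), r of 0.757 to 0.763 and a change in SD of 0.0208 to 0.0352. The lone library left in a group was assumed to vary like the others. The replicate block gave 4925 differences. The numbers do not pair the libraries (correlations of -0.040 to 0.0076 between groups). Of all differences, 59.1% were higher, against 63.2% with scaling by library size alone. Counts in 2 libraries a group limit the precision of genes under 5 CPM.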
